A study of Mus musculus with 8 samples.

Results

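The 10 genes described here encode matrix and surface proteins that embryonic fibroblasts are known for: Col1a1, Sparc, Thy1, Dcn, Lum, Col6a1, Col6a2, Pdgfra, Timp3 and Mmp2. They were taken as a named list on mouse chromosomes 5, 8, 9, 10 and 11, and they are 10 of the 6170 protein-coding genes annotated on these 5 chromosomes. Their start sites, gene bodies and 50 kb flanks were scored against maps of mono-, di- and trimethylated H3K9, that is histone H3 at lysine 9, written H3K9me1, H3K9me2 and H3K9me3. The maps came from chromatin immunoprecipitation and sequencing (ChIP-seq) of wild-type mouse embryonic fibroblasts (MEFs), with 2 libraries for each mark and 2 of sonicated input DNA, 8 samples in all. Antibodies from abcam were used: ab8896 against H3K9me1, ab1220 against H3K9me2 and ab8898 against H3K9me3. These wild-type cells are the E1c line, a single clone of fibroblasts that carry a conditional allele of Eset1 (Setdb1), an H3K9 methyltransferase gene, and a tamoxifen-inducible Cre. All 8 samples share this background, were grown in standard medium and were not induced, so each map describes 1 clone with the conditional allele still in place. The labels give no age or strain for the cells.

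Fibroblasts build the extracellular matrix of connective tissue. They secrete fibrillar and network-forming collagens, the proteoglycans and glycoproteins that bind to collagen fibrils, and the enzymes and inhibitors that remodel them, while surface receptors read growth factors and neighbouring cells. H3K9me2 and H3K9me3 are known as marks of silent chromatin, with H3K9me3 enriched over repeats and heterochromatin and H3K9me2 spread over broad domains, whereas H3K9me1 is also found over transcribed genes. The region lists contain no expression values, so neither the activity of these genes nor the fibroblast identity of the cells could be checked here.

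The deposited lists held 42704 regions for H3K9me1, 29119 for H3K9me2 and 27108 for H3K9me3, all laid on a grid of 750 bp. There is 1 list per mark for its 2 libraries, with no height, p-value or replicate value. The values below therefore carry no SD and no test. The lists hold no read depth, for which the study's methods state a general figure per sample. The lists were very uneven between chromosomes. The number of H3K9me1 regions ran from 3 to 5942 over the 19 autosomes, and each of the 3 lists had fewer than 500 regions on 8 autosomes. The 5 chromosomes that carry the 10 genes were well populated, but unequally: H3K9me3 regions covered 58.8% of chromosome 10, 37.7% of chromosome 8, 16.5% of chromosome 5, 13.9% of chromosome 9 and 8.88% of chromosome 11. For H3K9me1 the share was 56.5% on chromosome 10 and 16.9% on chromosome 11. Dcn, Lum, Col6a1, Col6a2 and Timp3 lie on chromosome 10 and the other 5 genes lie elsewhere. Gene and chromosome therefore cannot be told apart in a contrast between these groups, and each gene was read beside the protein-coding genes of its own chromosome.

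RefSeq promoter windows of the mouse assembly GRCm38.p6 were at hand for Pdgfra, Col6a1, Col6a2, Timp3 and Sparc, and not for Col1a1, Thy1, Dcn, Lum or Mmp2. The Sparc window lies inside the annotated gene and is not printed, and it was free of the 3 marks. For the other 4 genes the stretches before the annotated 5' ends are shown. All 4 stretches are free of the 3 marks, although the Col6a1, Col6a2 and Timp3 genes behind them are largely covered by H3K9me1. Each stretch is printed 5' to 3' on the strand of its gene, with every CG dinucleotide in capitals. None of them meets an annotated exon.
Col6a1: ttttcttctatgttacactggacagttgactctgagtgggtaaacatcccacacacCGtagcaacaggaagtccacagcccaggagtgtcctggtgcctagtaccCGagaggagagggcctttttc
Col6a2: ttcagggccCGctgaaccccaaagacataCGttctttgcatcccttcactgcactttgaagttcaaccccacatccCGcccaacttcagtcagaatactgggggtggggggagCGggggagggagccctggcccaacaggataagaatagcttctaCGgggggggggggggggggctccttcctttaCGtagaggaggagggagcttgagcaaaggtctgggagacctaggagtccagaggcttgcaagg
Timp3: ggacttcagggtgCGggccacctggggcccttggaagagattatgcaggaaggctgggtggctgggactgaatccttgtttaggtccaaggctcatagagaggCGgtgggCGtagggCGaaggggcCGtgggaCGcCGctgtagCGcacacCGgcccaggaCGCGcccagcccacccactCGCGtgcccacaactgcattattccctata
Pdgfra: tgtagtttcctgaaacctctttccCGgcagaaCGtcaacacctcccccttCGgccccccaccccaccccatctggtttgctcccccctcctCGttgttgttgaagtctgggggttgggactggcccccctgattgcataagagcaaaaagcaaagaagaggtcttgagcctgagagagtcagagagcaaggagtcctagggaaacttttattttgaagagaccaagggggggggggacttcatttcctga
The Col6a1 stretch lies at chr10:76726169-76726294 on the minus strand and has 2 CG in 126 bases. The Col6a2 stretch lies at chr10:76623631-76623880 on the minus strand and has 6 CG in 250 bases. The Timp3 stretch, at chr10:86300162-86300371 on the plus strand, was the densest, with 13 CG in 210 bases, or 6.19 per 100 bases. The Pdgfra stretch, at chr5:75152001-75152250 on the plus strand, has 4 CG in 250 bases. The sense-strand letters TATAAA were found in none of the RefSeq windows of these 4 genes and in 6.74% of all 5728 windows of the same length on the 5 chromosomes. The GC box letters GGGCGG or CCGCCC occurred in the windows of Timp3 and Col6a2 and in 47.5% of all windows. The printed Col6a2 stretch holds them. In Timp3 they lie past the annotated 5' end, in the part of the window that is not printed.

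The question put to the maps was whether genes typical of the fibroblast carry H3K9 methylation at their starts in these cells. A start was counted as met when a region covered at least 1 bp of the 1 kb on either side of it, for any annotated transcript of the gene. H3K9me1 met a start of 8 of the 10 genes, against 54.2% of protein-coding genes on the 5 chromosomes. H3K9me2 met a start of 4 genes, Dcn, Lum, Col6a1 and Mmp2, against 22.3%. H3K9me3 met a start of Mmp2 alone, against 20.05%. Any of the 3 marks met 8 genes, against 61.3%, and the genes left without a mark were Col1a1 and Sparc. With 45 annotated starts in all and a median of 4 per gene, these genes have slightly more starts than the median of 3 over the 6170 genes, which gives a region more windows to meet. Counted start by start, 17 of the 45 were met by H3K9me1, 7 by H3K9me2 and 4 by H3K9me3, and all 4 of the last belong to Mmp2.

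Of these genes, 5 lie on chromosome 10. They were all met by H3K9me1, beside 81.7% of the 1021 protein-coding genes of that chromosome. Dcn, Lum and Col6a1 were met by H3K9me2, beside 55.1%, and none of the 5 was met by H3K9me3, beside 54.5%. At the exact base of the 5' end the marks were rarer. Among the 10 genes that base lay inside an H3K9me1 region in Mmp2 only, against 18.6% of genes on the 5 chromosomes. It lay inside an H3K9me2 region in Lum only, against 12.7%, and inside an H3K9me3 region in Mmp2 only, against 12.7%. Any of the 3 marks held that base in 2 of the 10 genes, against 25.8% of all genes, so a bare 5' end, as in the other 8 genes, was also the usual state over the 5 chromosomes.

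**Figure D1:**
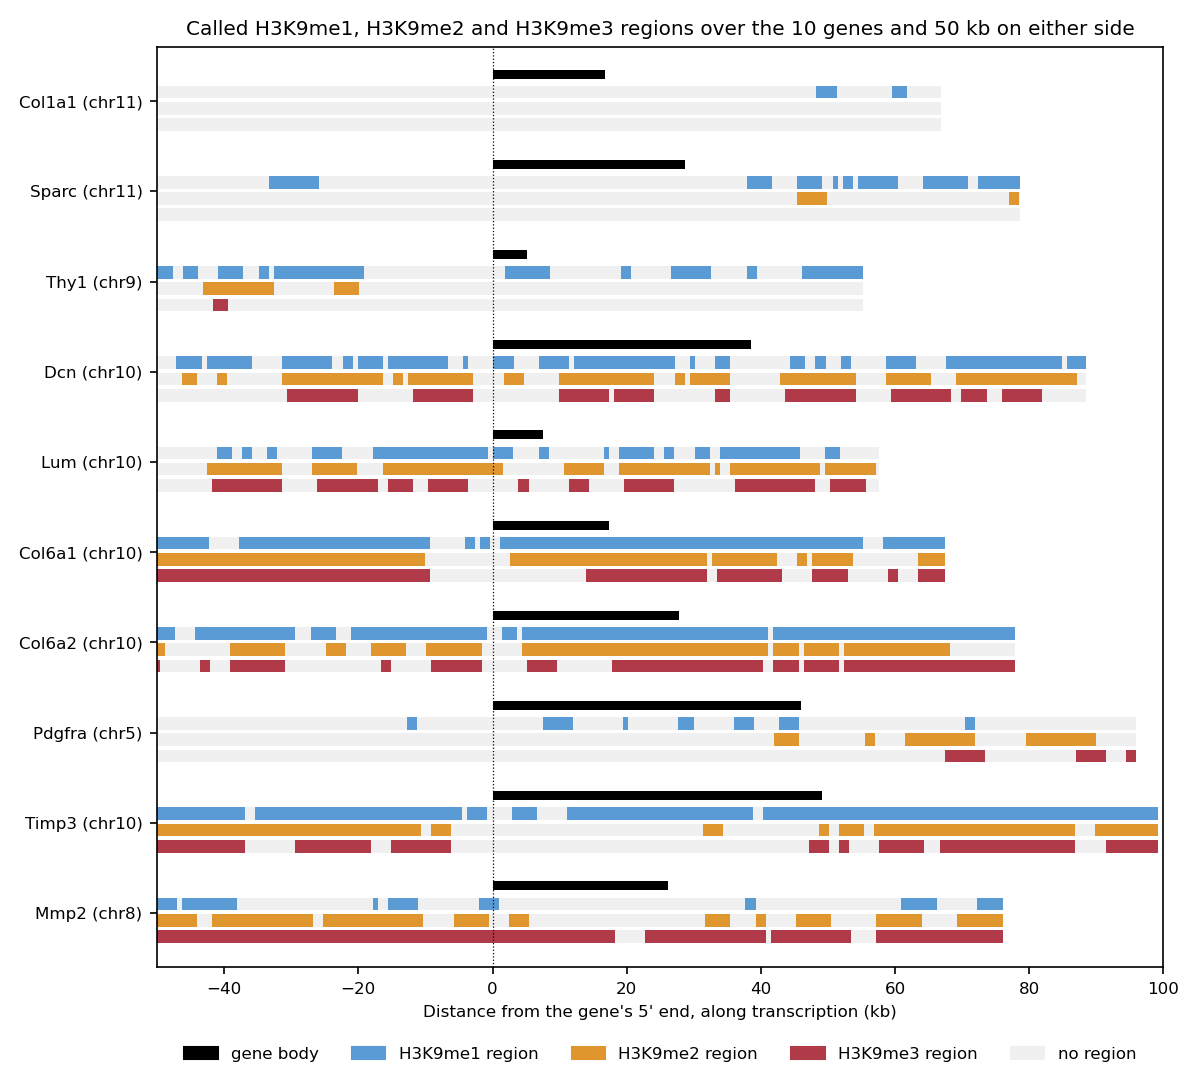
Regions of H3K9me1, H3K9me2 and H3K9me3 over each of the 10 genes and 50 kb on either side, drawn in kb from the gene's 5' end along the direction of transcription, with the gene body in black and grey where no region was called. Col1a1 and Sparc have empty bodies, the chromosome 10 genes have a gap at the dotted 5' end inside broad coverage, and Mmp2 lies in a long H3K9me3 region.

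Col1a1 (ENSMUSG00000001506, chr11:94936224-94953042, plus strand) encodes the alpha 1 chain of type I collagen, the main fibrillar collagen of connective tissue. Its body was 0% covered by each of the 3 marks, and its 4 annotated starts were not met. The nearest H3K9me1 region began 48.3 kb downstream of the 5' end. The nearest H3K9me2 and H3K9me3 regions were 1131 kb and 1134 kb away, and the 5' end sat in an H3K9me3-free interval of 4811 kb. Col1a1 was the barest of the 10 loci, with 5.25% of its flanks in H3K9me1 and none in the other marks. Among the 1639 protein-coding genes of chromosome 11, 59.5% had more H3K9me1 over the body than Col1a1 and 78.2% had more over the flanks. The median body shares there were 11.3% for H3K9me1 and 0% for the other marks. Its downstream neighbour Sgca, a muscle sarcoglycan gene, was bare as well.

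Sparc (ENSMUSG00000018593, chr11:55394500-55423183, minus strand) encodes a secreted glycoprotein that binds collagen. Like Col1a1, it had 0% of its body in each mark and no mark at any of its 8 starts. Its surroundings differed from those of Col1a1, with 36.3% of the flanks in H3K9me1 and 6% in H3K9me2. The H3K9me1-free interval around the Sparc 5' end measured 63.8 kb, against 126 kb at Col1a1. The H3K9me1 regions lay mainly on the downstream side, where they covered 57.5% of 50 kb, and there the next gene, the atypical cadherin Fat2, was met at a start by all 3 marks.

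Col6a1 (ENSMUSG00000001119, chr10:76708792-76726168) and Col6a2 (ENSMUSG00000020241, chr10:76595762-76623630) encode chains that assemble with the Col6a3 chain into type VI collagen, a network of beaded filaments around cells. They lie 85.2 kb apart on the minus strand, so their flanks overlap and the genes are not independent of each other. Both bodies were broadly covered by H3K9me1, 93.3% in Col6a1 and 92.4% in Col6a2. The H3K9me2 shares were 84.6% and 84.3%, above the chromosome 10 median of 48.1%. H3K9me3 covered 19.9% of Col6a1 and 52.0% of Col6a2, on either side of the chromosome median of 44.4%. The shared feature of the 2 genes was a bare 5' end in a covered body.

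That gap was short for H3K9me1 and longer for the other marks. In Col6a1 the H3K9me1-free interval around the 5' end was 1.5 kb, the H3K9me2-free interval 12.8 kb and the H3K9me3-free interval 23.3 kb. In Col6a2 the same intervals were 2.25 kb, 6 kb and 6.75 kb. The printed Col6a1 and Col6a2 stretches lie inside these intervals. The Col6a2 start was met by H3K9me1 over 130 bp of its 2001 bp window only, and the other annotated start, 305 bp further inside, was not met. Within Col6a1, H3K9me3 covered 0% of the 50% of the body nearest the 5' end and 39.8% of the rest, and in Col6a2 it covered 32.3% and 71.7%. Both genes were therefore barer of H3K9me3 toward their starts.

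Dcn (ENSMUSG00000019929, chr10:97479609-97518143, plus strand) and Lum (ENSMUSG00000036446, chr10:97565128-97572703, plus strand) encode decorin and lumican, small leucine-rich proteoglycans that bind collagen fibrils. Dcn had 66.2% of its body in H3K9me1, 64.2% in H3K9me2 and 40.9% in H3K9me3. Lum had 48.9%, 21.4% and 19.8%. Lum was the chromosome 10 gene of the list with the least H3K9me1, below the lower quartile of 62.4% for that chromosome, and its H3K9me2 and H3K9me3 shares were under the chromosome medians as well.

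The 5' ends of Dcn and Lum differed in H3K9me2. In Dcn the first H3K9me1 region began 142 bp downstream of the 5' end and the first H3K9me2 region 1642 bp downstream, so that H3K9me2 met only the 4 internal starts. In Lum a single H3K9me2 region of 18 kb ran from 16.4 kb upstream to 1.62 kb inside the gene and covered the whole 2001 bp window. H3K9me3 kept a distance from both starts, 2859 bp in Dcn and 3628 bp in Lum. The H3K9me3-free interval measured 12.8 kb at Dcn and 7.5 kb at Lum, beside a median of 22.5 kb over the 680 chromosome 10 genes whose 5' end was outside H3K9me3, so these gaps were not wide for that chromosome.

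Downstream of Lum, on the same strand, follow Kera and Epyc, 2 further proteoglycan genes of this family that are best known from the cornea and from cartilage. Kera, 34.2 kb after Lum, had 60.5% of its body in H3K9me1, 100% in H3K9me2 and 93.5% in H3K9me3. Epyc had 94.1%, 86.3% and 66.8%. All 3 marks met the starts of Kera and of Epyc and covered the full Kera window of 2001 bp, whereas H3K9me3 met neither Dcn nor Lum. The sequence between the genes was covered as well, with H3K9me3 over 62.3% of the interval from Dcn to Lum, 47.2% from Lum to Kera and 39.7% from Kera to Epyc. The order of H3K9me3 body shares along the cluster was Kera, Epyc, Dcn and Lum, from high to low, with no replicate spread to set beside it.

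**Figure D2:**
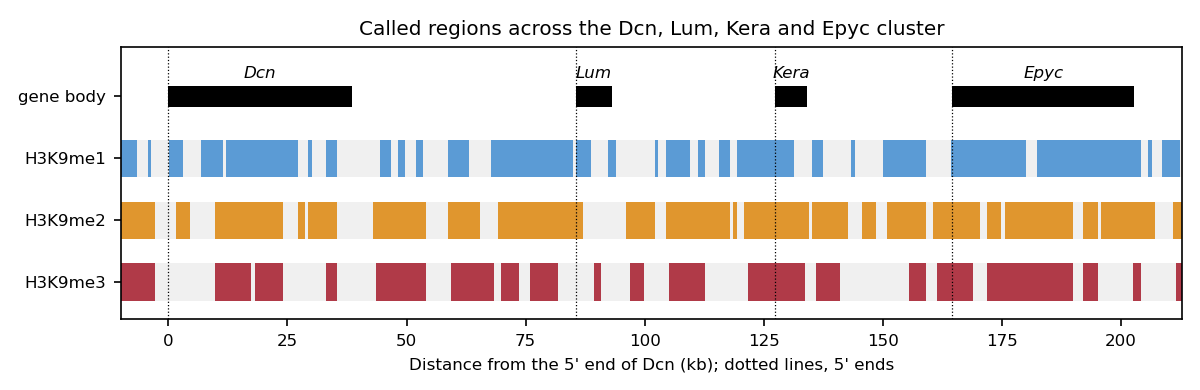
Regions of the 3 marks across the cluster of Dcn, Lum, Kera and Epyc, in kb from the 5' end of Dcn, with gene bodies in black and 5' ends as dotted lines. H3K9me3 regions cross the 5' ends of Kera and Epyc and leave those of Dcn and Lum uncovered.

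Thy1 (ENSMUSG00000032011, chr9:44043384-44048579, plus strand) encodes a glycolipid-anchored surface glycoprotein widely used to identify fibroblasts. H3K9me1 covered 64.1% of its 5.20 kb body, just above the upper quartile of 61.1% for chromosome 9. H3K9me2 and H3K9me3 covered 0%. The covered part was the 3' part, since 1 H3K9me1 region of 6.75 kb began 1867 bp after the 5' end and ran past the end of the gene. Accordingly the 2 outermost starts were not met and 4 internal starts were. The H3K9me1-free interval at the 5' end of Thy1 was 21 kb.

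Pdgfra (ENSMUSG00000029231, chr5:75152292-75198215, plus strand) encodes the alpha receptor for platelet-derived growth factor, a tyrosine kinase of mesenchymal cells. Its body had 29.4% in H3K9me1, 8.17% in H3K9me2 and 0% in H3K9me3. The H3K9me1 share was near the chromosome 5 median of 32.3%. It was spread over 5 regions of 0.75 to 4.5 kb, the first of them 7.46 kb after the 5' end, and 1 of the 9 annotated starts, an internal one 9542 bp into the gene, was met. The single H3K9me2 region lay at the 3' end. Pdgfra thus had a bare promoter, shown above, in an H3K9me1-free interval of 18.8 kb. The next gene downstream, the related receptor Kit, begins 377 kb away and differed in kind, with 100% of its body in H3K9me3 and none in H3K9me1 or H3K9me2.

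Timp3 (ENSMUSG00000020044, chr10:86300372-86349506, plus strand) encodes a matrix-bound inhibitor of metalloproteinases. It lies on the opposite strand inside an intron of the longest protein-coding transcript of Syn3, a synapsin gene. H3K9me1 covered 81.9% of the Timp3 body, H3K9me2 7.14% and H3K9me3 4.08%. The remainder of Syn3, outside Timp3, had 90.9% in H3K9me1, 78.1% in H3K9me2 and 64.7% in H3K9me3. Timp3 therefore had far lower shares of H3K9me2 and H3K9me3 than its host gene, and a similar share of H3K9me1. Among the protein-coding genes of chromosome 10, 32.0% had a lower H3K9me2 body share than Timp3 and 29.1% a lower H3K9me3 share. In the 50 kb on either side of Timp3 the shares were 96.9%, 86.4% and 70.6%.

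The interval free of H3K9me3 around the Timp3 5' end measured 53.3 kb, longer than the gene, and the interval free of H3K9me2 measured 37.5 kb. The H3K9me1-free interval at its 5' end, which holds the CG-rich stretch printed above, measured 3.75 kb. The 5' window of Timp3 was met by H3K9me1 over 129 bp of 2001 bp. H3K9me3 reached into the gene over its last 2.01 kb only. Over the whole gene it covered 24.6% of the exon bases and 0% of the intron bases. Beyond that end, an H3K9me1 region of 100.5 kb ran from inside the gene far into the Syn3 sequence, a width reached by 0.208% of H3K9me1 regions on the 5 chromosomes.

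Mmp2 (ENSMUSG00000031740, chr8:92827291-92853420, plus strand) encodes a secreted metalloproteinase that cleaves collagen and gelatin. It was the exception among the 10 genes. H3K9me3 covered 82.8% of its body, H3K9me2 11.5% and H3K9me1 3.67%. The medians on chromosome 8 were 0% for H3K9me3 and 69.1% for H3K9me1, so the proportions were turned round, and 13.0% of the 1040 protein-coding genes of that chromosome had a higher H3K9me3 share than Mmp2. All 4 annotated Mmp2 starts were fully covered by H3K9me3 within 1 kb.

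The H3K9me3 at Mmp2 came from a region of 118.5 kb, chr8:92727001-92845500, which began 100.3 kb upstream of the 5' end and ended 18.2 kb inside the gene. Mmp2 was the only annotated gene that this region met, and 0.855% of H3K9me3 regions on the 5 chromosomes were as wide. After a break of 4.5 kb that holds exon 11 of the 13 exons of the transcript that begins at the 5' end, a further H3K9me3 region of 18 kb covered the 3' end of Mmp2 and the start of the neighbouring gene Lpcat2. The flanks of Mmp2 were 95.5% covered, a share exceeded by 1.64% of genes on the chromosome. Upstream, the homeobox gene Irx6, 146 kb away, had 100% of its body in H3K9me2 and in H3K9me3. A small H3K9me1 region of 3 kb lay across the 5' end of Mmp2 within the H3K9me3 region, and it covered 1960 bp of the 2001 bp window. With H3K9me2 over 460 bp, the Mmp2 5' window was the only one of the 10 that all 3 marks met.

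**Figure D3:**
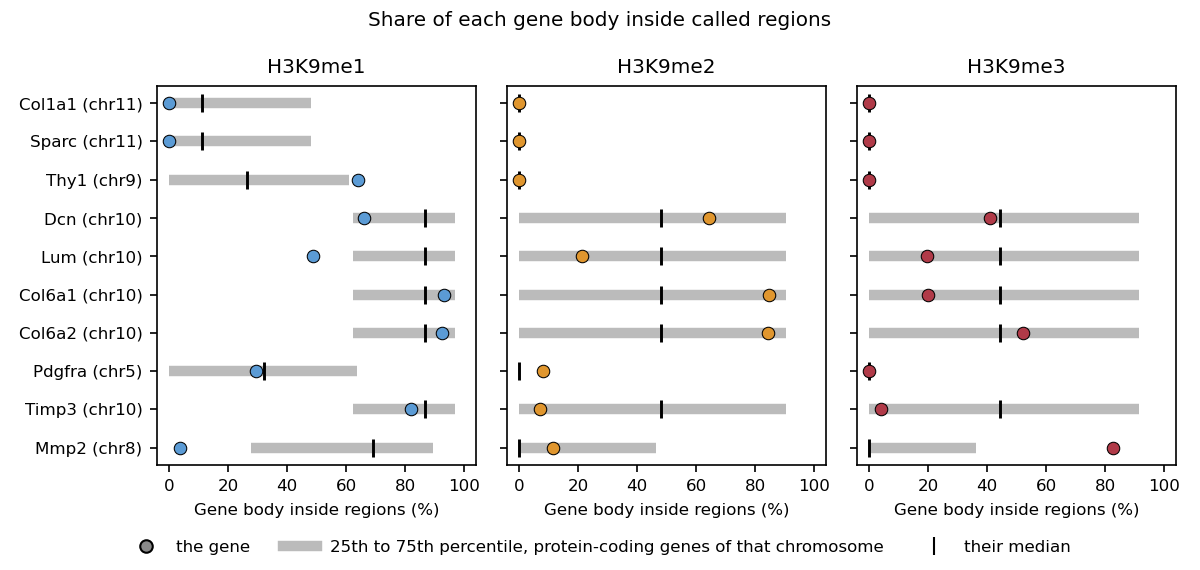
Share of each gene body inside regions of each mark (points, %), beside the interquartile range (grey bars) and median (ticks) of the protein-coding genes of the same chromosome. Most points sit inside the grey range of their chromosome, Lum and Mmp2 are below it for H3K9me1, Thy1 is just above it for H3K9me1, Pdgfra is above it for H3K9me2 and Mmp2 is above it for H3K9me3.

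Ordered by H3K9me1 over the body, the genes ran Col6a1, Col6a2, Timp3, Dcn, Thy1, Lum, Pdgfra and Mmp2, then Sparc and Col1a1 at 0%. The median was 56.5% over the 10 genes and 39.9% over the 6170 genes of the 5 chromosomes. For H3K9me2 the median was 9.82%, with Col6a1, Col6a2 and Dcn above 60% and Lum next at 21.4%. For H3K9me3 it was 11.9%, with Mmp2 at 82.8%, Col6a2 and Dcn next, and 4 genes at 0%. Both medians were 0% over the 6170 genes. On chromosome 10 alone the medians over the 5 genes were 81.9%, 64.2% and 19.9% for H3K9me1, H3K9me2 and H3K9me3, beside 86.8%, 48.1% and 44.4% over the genes of that chromosome.

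The marks overlapped in different ways. In Col6a1, 64.7% of the body carried H3K9me1 and H3K9me2 without H3K9me3, and 19.9% carried all 3. In Col6a2 the same states took 32.3% and 52.0%. Timp3 was mostly H3K9me1 alone, 71.7% of its body, and Thy1 had no other state. Mmp2 was mostly H3K9me3 alone, 67.6% of its body, a state that took 19.8% of Lum and 0% of the other 8 genes.

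The 50 kb flanks were richer in H3K9me2 and H3K9me3 than the bodies. Their median shares over the 10 genes were 48.3%, 64.6% and 52.9% for H3K9me1, H3K9me2 and H3K9me3, beside 43.3%, 6.75% and 4.50% over the 6170 genes. The 5 chromosome 10 genes had medians of 86.2%, 75.6% and 66.1%, beside 83.9%, 59.0% and 55.5% over the genes of that chromosome, a smaller difference than that from all 5 chromosomes for H3K9me2 and H3K9me3. Of the other 5 genes, Mmp2 had 65.4% and 95.5% of its flanks in H3K9me2 and H3K9me3, Pdgfra 22.5% and 12.0%, and the rest less.

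A further comparison set each body against its own flanks. The H3K9me3 share was lower over the body than over the flanks in 8 genes and equal, at 0%, in Col1a1 and Sparc. Over the 5 chromosomes 42.1% of protein-coding genes had the lower share in the body. That percentage counts ties: 2596 of the 6170 genes were lower, 1140 higher and 2434 equal. Lower was thus also the more frequent direction among the genes that differed. On chromosome 10 all 5 genes had the lower H3K9me3 share in the body, beside 55.2% of that chromosome's genes. The differences there were 7.88 percentage points in Dcn, 14.1 in Col6a2, 37.2 in Lum, 55.8 in Col6a1 and 66.5 in Timp3. In H3K9me1 the genes went either way, with 5 lower and 5 higher in the body than in the flanks, beside 44.9% of all genes lower. For H3K9me2, 7 genes were lower, 2 higher and 1 equal, beside 47.2% lower. Over the 6170 genes these were 2914 lower, 1341 higher and 1915 equal. On chromosome 10, 2 of the 5 genes were lower for H3K9me1 and 3 of 5 for H3K9me2, near the 42.1% and 56.4% of that chromosome's genes. Dcn and Lum share part of their flanks, as do Col6a1 and Col6a2, so these 10 comparisons overlap.

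**Figure D4:**
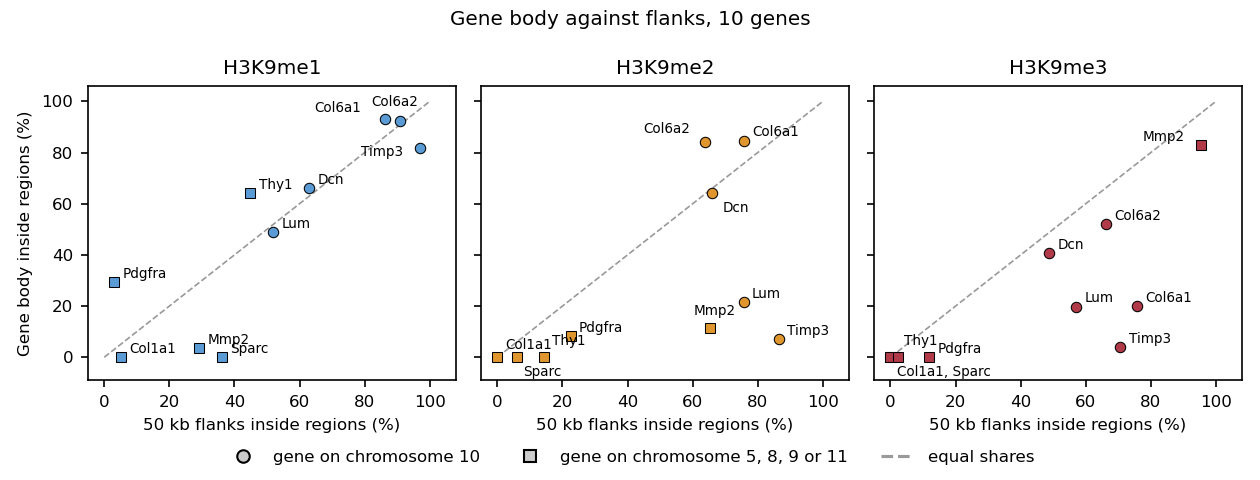
Share of the gene body (vertical axis, %) against the share of the 50 kb flanks (horizontal axis, %) inside regions of each mark, for the 10 genes; circles lie on chromosome 10, squares on other chromosomes, and the dashed line marks equal shares. For H3K9me3 no gene lies above the line, and Timp3 and Col6a1 lie farthest below it.

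Around the 5' ends, the 5 chromosome 10 genes had a narrow H3K9me1 gap and a wider H3K9me3 gap, as the genes of that chromosome had in general. The unmarked interval around the 5' end had a median of 2.25 kb for H3K9me1 and 12.8 kb for H3K9me3 in the 5 genes, beside 3.75 kb and 22.5 kb over the chromosome 10 genes whose 5' end was unmarked. H3K9me1 regions held the 5' end in 0 of the 5 genes, the position 2 kb upstream in 3 and the position 2 kb downstream in 4. For the 1021 genes of chromosome 10 the H3K9me1 shares were 36.0% at the 5' end, 71.1% at 2 kb upstream and 64.1% at 2 kb downstream. H3K9me3 regions held 0 of 5 at the 5' end, at 1 kb and at 2 kb downstream, and 1 of 5 at 5 kb downstream, beside 33.4%, 33.8%, 37.3% and 44.9% of the chromosome 10 genes. With 5 genes, a single gene moves these shares by 20 percentage points.

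**Figure D5:**
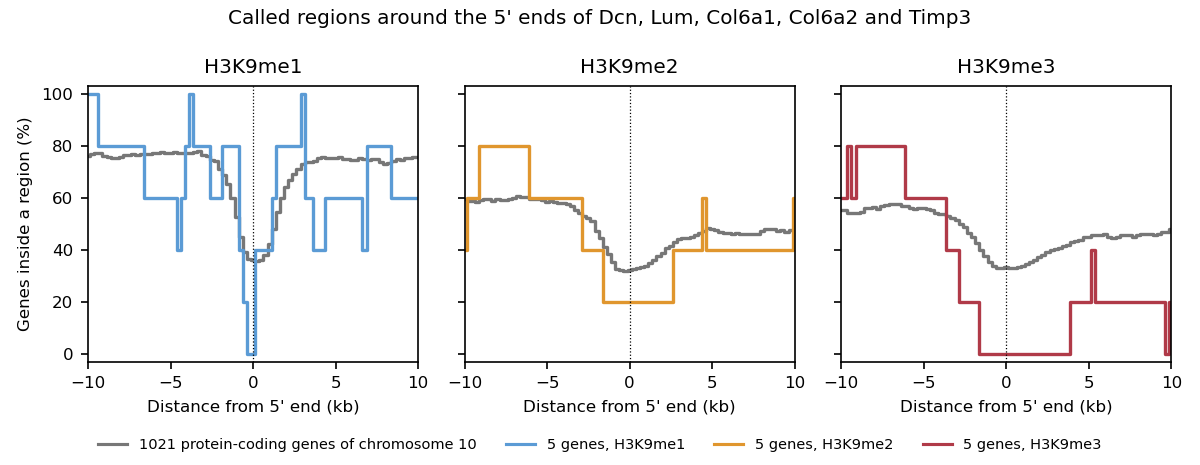
Share of genes (%) whose sequence lay inside a region at each distance (kb) from the 5' end, for Dcn, Lum, Col6a1, Col6a2 and Timp3 (coloured) and for the 1021 protein-coding genes of chromosome 10 (grey). The grey curves dip at the 5' end for all 3 marks, and the coloured H3K9me3 line stays at 0% from the 5' end to 2 kb downstream.

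Sequence composition moved with the marks at 5' ends across all genes. The ratio of observed to expected CG dinucleotides in the 2001 bp window had a median of 0.516 over the 6170 genes. Of the 10 genes, 7 fell in the tertile of genes with the lowest ratio, from Col6a1 at 0.152 to Col1a1 at 0.307. Thy1 at 0.385 and Timp3 at 0.565 fell in the middle tertile and Pdgfra at 0.713 in the highest. Over all genes of the 5 chromosomes, the 5' end lay inside H3K9me1 in 39.8% of the lowest tertile, 13.9% of the middle tertile and 2.19% of the highest tertile, and inside H3K9me3 in 23.9%, 9.73% and 4.42%. Col1a1, Sparc, Dcn, Lum, Col6a1 and Col6a2 thus had CG-poor 5' ends outside H3K9me3, and Mmp2, at 0.305, a CG-poor 5' end inside it. For Sparc the ratio was taken at the outermost annotated start, whereas its RefSeq start lies 3103 bp further inside the gene. The part of CG content in these differences was not tested.

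Other matrix and surface genes of the same 5 chromosomes, 40 genes from lists of collagens, proteoglycans, processing enzymes, glycoproteins, proteases and receptors, gave a start met by H3K9me1 in 22, by H3K9me2 in 12 and by H3K9me3 in 11. These are 55.0%, 30.0% and 27.5% of the 40 genes, beside 54.2%, 22.3% and 20.05% of all protein-coding genes there, so the H3K9me1 share was at the background. Chromosome 10 held 9 of the 40 genes, with 6 of the 12 H3K9me2 starts and 6 of the 11 H3K9me3 starts. Over all protein-coding genes of that chromosome the shares were 55.1% and 54.5%. Gene list and chromosome were not separated for these marks. Among 11 collagen genes, H3K9me3 met Col6a4, Col6a5, Col6a6, Col13a1, Col18a1 and Col26a1, H3K9me2 met 5 of these 6, the exception being Col6a5, and Col5a3 and Col12a1 had no mark at a start. Col6a4, Col6a5 and Col6a6 encode further type VI chains and lie together on chromosome 9. Their H3K9me3 body shares were 79.7%, 72.3% and 76.5%, above the 19.9% of Col6a1 and the 52.0% of Col6a2, although chromosome 9 as a whole has less of the mark. Of the 6 matrix glycoprotein genes, H3K9me2 met Eln, Lama2, Sparcl1 and Spock2, H3K9me3 met Lama2 and Spock2, and Ccn2 had no mark. The 8 collagen-processing genes had no start met by H3K9me2 or H3K9me3, and Loxl1, Plod2, P4hb and Pcolce no mark at a start. Among the proteases and inhibitors, Mmp3, Mmp13 and Timp2 had no mark at a start and 0% of the body in every mark, and Mmp15 alone was met by H3K9me2. None of them was met by H3K9me3, unlike Mmp2. Of the 6 receptor and surface genes, the cadherin Cdh11 alone was met by H3K9me3, with 68.7% of its body covered, and Pdgfa, a ligand of the Pdgfra receptor, Nt5e and Itga11 had no mark at a start.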

How the data were processed

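ChIP-seq reads of 8 samples in 4 groups, H3K9me1, H3K9me2, H3K9me3 and input with 2 libraries each, were processed by the authors. According to the submitters' notes and the study's methods, BWA 0.7.1 placed the reads on the mouse build mm10 (GRCm38) and histoneHMM called the regions. The values deposited by the authors are the first and last positions of each region on a 750 bp grid, 1 list per mark. How replicates and input entered the calls, and the threshold, are not given in the sources used here. No signal or input values were analysed.

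From these lists, the bases covered were computed for 10 genes and for all protein-coding genes of 5 chromosomes in the GENCODE annotation of GRCm38, with Python 3.11.15, NumPy 2.4.6, Matplotlib 3.10.9 and samtools 1.23.1. Starts were met when at least 1 bp of the 1 kb on either side was covered. The gene body is the annotated span, and flanks are 50 kb on each side. The interval code was tested on simulated data, with 0 of 3000 results wrong. No test across samples was made, since each mark has 1 list. Named genes are the 10 genes, the genes that overlap them or are nearest to them, and, in the further lists, those met by H3K9me2 or H3K9me3 or by no mark, except 1 gene that is not reported here. Genes named beyond this rule were chosen after their values were seen. The 10 genes and the lists were chosen with earlier results of these data known. Alternatives changed the window, the definition of a start, the region width, joining, the flank width and the bases counted. Promoter sequences are from RefSeq, GRCm38.p6.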

Additional observations from a re-analysis of the deposited data

How the results depend on the processing

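Each count of genes and each median was recomputed under the other settings, 69 alternatives in all, of which 51 stayed within 1.5 times the count or within the 95% Wilson interval of the share over the 750 bp bins. That interval covers counting of bins only. Keeping only regions of at least 5 kb changed most: starts were met by H3K9me1 in 4 of 10 genes and by any mark in 5, no longer above the shares of all genes under that setting, 43.5% and 51.1%, the body medians fell to 19.5%, 0% and 0% for H3K9me1, H3K9me2 and H3K9me3, and the H3K9me1 flank median fell to 33.3%. With the 5' end as the only start, H3K9me2 met 2 genes. With 2 kb on either side, H3K9me3 met 2 genes, Col6a2 and Mmp2. Joining regions up to 5 kb apart gave medians of 78.0% over bodies and 62.2% over flanks for H3K9me1, and 76.5% over flanks for H3K9me2. Flanks of 20 kb gave 34.3% for H3K9me1, and bases outside any annotated gene 37.0%. The chromosome 10 genes alone, an alternative chosen after seeing the data, gave 81.9% and 64.2% over bodies for H3K9me1 and H3K9me2 and 86.2%, 75.6% and 66.1% over flanks for the 3 marks. The cause of these changes was not tested beyond the construction of each setting. No paired analysis was possible because each mark has a single region list without values for its 2 libraries, and for the same reason no library could be left out. Depth is unknown from the lists, so a gene without a region was not called and may still carry the mark below the threshold.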

Other observations

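Genes typical of other lineages were scored in the same way on the 5 chromosomes, as a list of 21 genes. A start was met by H3K9me1 in 12 of them, by H3K9me2 in 6, by H3K9me3 in 8 and by any mark in 14. These are 57.1%, 28.6%, 38.1% and 66.7%, beside 54.2%, 22.3%, 20.05% and 61.3% of all protein-coding genes of these chromosomes. Of the 8 genes met by H3K9me3, Cd3d, Cd3e and Cd3g lie on chromosome 9 and Cdh1 and Cdh5 on chromosome 8. Lyz2 and Syn3 lie on chromosome 10 and Kit on chromosome 5. H3K9me3 met 10.25%, 29.3%, 54.5% and 11.9% of the protein-coding genes of chromosomes 9, 8, 10 and 5. The T cell receptor component genes Cd3d, Cd3e and Cd3g, which lie together on chromosome 9, had 100%, 100% and 89.1% of their bodies in H3K9me1, and each was met at a start by H3K9me3. Cd3e was the member of this cluster with the most H3K9me3, 58.7% of its body, beside 13.2% in Cd3g and 3.87% in Cd3d. The windows of 1 kb on either side of the 5' ends of Cd3d and Cd3g overlap, so these genes are not independent of each other. Endothelial genes differed among themselves. The cadherin gene Cdh5 had 61.5% of its body in H3K9me1, 87.8% in H3K9me2 and 63.3% in H3K9me3, whereas Esam, Icam2 and Pecam1 had 100%, 44.1% and 24.1% in H3K9me1 and 0% in the other marks. The epithelial cadherin gene Cdh1 had 80.9%, 33.9% and 17.0%. Of the myeloid genes, Cd68 and Mpo on chromosome 11 had 0% of the body in each mark, and Lyz2 on chromosome 10 was met at a start by all 3 marks, with 100% of its body in H3K9me1, 66.5% in H3K9me2 and 0% in H3K9me3.

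Among receptor genes downstream of Pdgfra, the endothelial receptor Kdr had 4.93% of its body in H3K9me1, 6.57% in H3K9me2 and 16.4% in H3K9me3, and no start met by any mark. Kit, between Pdgfra and Kdr, was met at a start by H3K9me3 alone.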
